A study of Mus musculus with 2 samples.

Results

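The myogenic transcription factors Pax7, Pax3, Myf5, Myod1, Myog, Myf6, Msc and Mef2c were followed through hindlimb muscle of aged mice, as 8 genes matched by symbol among the 32285 genes listed. Both groups were 24-month-old female C57Bl/6J mice. Hindlimb muscles of the first group received 3 injections, every other day, of all-trans retinoic acid (ATRA) with the agonists CD3254, which acts on RXR receptors, and BMS961, which acts on the RAR-gamma receptor (ATRA+agonist), and those of the second received DMSO vehicle alone. Quadriceps and gastrocnemius were digested, cells were sorted after propidium iodide staining, and single-cell RNA-Seq counted unique molecular identifiers (UMIs, 1 per captured RNA molecule) from the 3-prime end of transcripts. Cells of 2 mice were pooled into 1 library per group, so the mice cannot be told apart, there is no replicate, and no test was run. Each difference below is a difference between a pair of libraries, and each interval is an exact 95% interval that covers counting error only.

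Skeletal muscle is repaired by muscle stem cells (MuSCs) that lie against the fibers. Pax7 and its close relative Pax3 are paired-box factors of the stem cell state. Myf5, Myod1, Myog and Myf6 are the myogenic regulatory factors, basic helix-loop-helix proteins that bind the E-box letters CANNTG together with E proteins. Myf5 and Myod1 commit cells to muscle, Myog starts terminal differentiation, and Myf6 (also called MRF4) is kept in mature fibers. Msc (musculin) is a repressive relative of this family. Mef2c is a MADS-box partner of the regulatory factors in muscle, and it also serves in endothelium, B cells and myeloid cells. Myf5 and Myf6 are neighbors on chromosome 10, at 107482908 to 107486134 and 107492853 to 107494737 (GRCm38), with 6718 bases between them.

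The libraries held 65197625 UMIs over 10444 barcodes (ATRA+agonist) and 109343486 UMIs over 17394 barcodes (vehicle), and 43 barcodes occurred in both. After filters 6907 and 6953 cells were kept, with a median of 4603 and 4762 UMIs per cell. Clusters were made without the 8 factors and named from other markers. MuSC-like cells numbered 412 with ATRA+agonist and 533 with vehicle. All 9 stem cell markers used for the name were higher there than in the other kept cells of each library, which follows in part from the naming. Calcr, the calcitonin receptor of quiescent stem cells, was found in 59.0% and 53.1% of MuSC-like cells and in 0.0462% and 0.0779% of the others. Barcodes with at least 10% of their UMIs from fiber markers (fiber-rich barcodes) were counted among all deposited barcodes, and numbered 276 and 84, of which 206 and 35 passed the filters. This group is a range and not a cell type, as 26 and 6 barcodes lay within 2 percentage points of the limit. Hemoglobin RNA from red blood cells differed between the MuSC-like classes, with a summed red blood cell marker level of 288 CPM (UMIs per 1000000 UMIs of the class) with ATRA+agonist and 862 CPM with vehicle, and none of these 5 markers was at 0 in either library. The summed level of the 6 neutrophil markers was 1.21 and 122 CPM. The part of these RNAs in the results below was not tested.

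Detection divided the factors into 3 groups. Pax7, Pax3, Myf5, Myod1 and Msc were found in MuSC-like cells, Myf6 mostly in fiber-rich barcodes, and Mef2c in most classes other than MuSC-like and T or NK cell-like cells. MuSC-like cells held 87.3% of all Pax7 UMIs of the ATRA+agonist library and 84.8% of those of the vehicle library, over all deposited barcodes. They held 47.5% and 55.2% of the Msc UMIs, and 0.0575% and 0.0582% of the Mef2c UMIs. Myog was split, with 57.3% and 38.0% of its 871 and 92 UMIs in MuSC-like cells and another 355 and 53 UMIs in barcodes that the upper limit of 5000 genes removed. Of the Myf6 UMIs, 84 of 108 and 30 of 52 lay in fiber-rich barcodes.

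**Figure D1:**
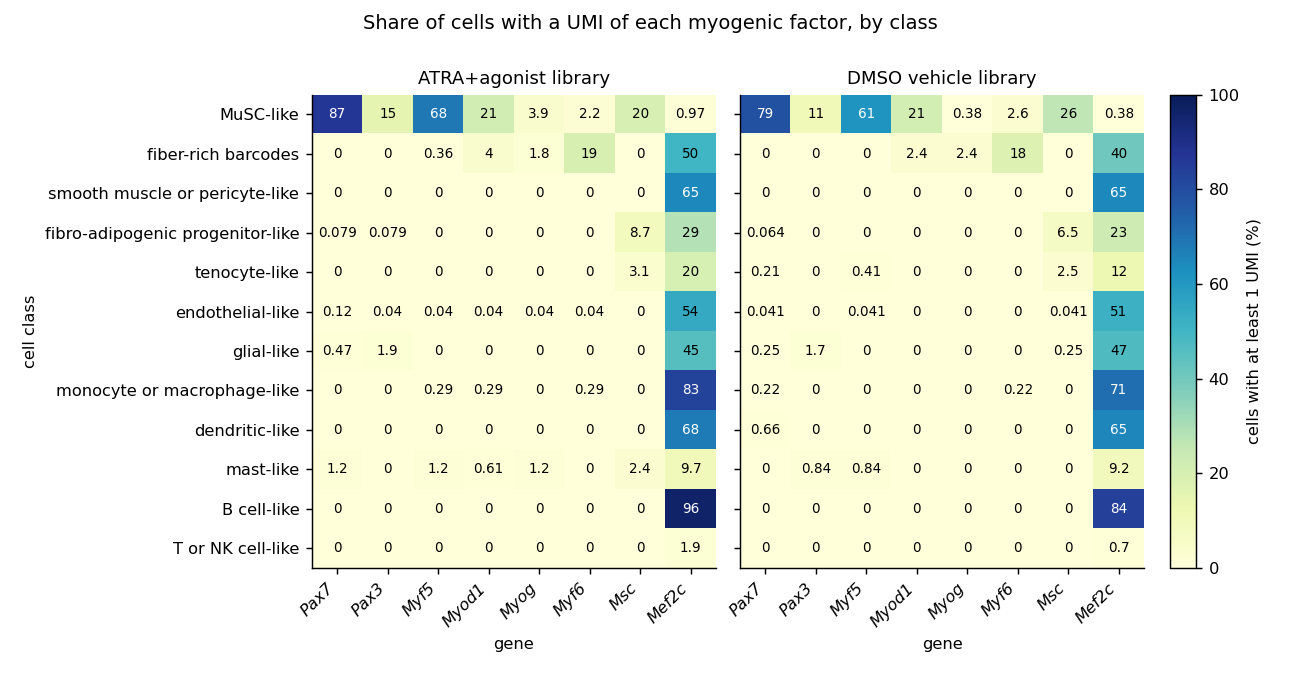
Share of cells with at least 1 UMI of each factor (percent, number and color) for 12 classes (rows) in the ATRA+agonist library (left) and the DMSO vehicle library (right). Pax7 is found in 86.7% and 78.8% of MuSC-like cells and in under 2% of every other class shown, and Mef2c in 0.971% and 0.375% of MuSC-like cells but in 96.1% and 84.0% of B cell-like cells.

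In MuSC-like cells Pax7 and Myog were higher with ATRA+agonist, Msc was lower, and Myf5 and Myod1 differed by less than counting error. Of the 8 factors, all of which reached 10 UMIs over both libraries, 3 were at least 1.5-fold higher (Pax7, Myog and Mef2c) and 1 was at least 1.5-fold lower (Msc), with a median log2 ratio of 0.28. Of all 13176 genes with 10 UMIs, 12.1% were at least 1.5-fold higher and 9.22% at least 1.5-fold lower, with a median of 0.05. The Mef2c value rested on 8 and 5 UMIs and its interval included 0. With no maximum of genes per barcode the Pax7 log2 ratio was 0.58, just under 1.5-fold.

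Pax7, which maintains the stem cell pool, was counted with 1729 UMIs in 412 ATRA+agonist cells and 1296 UMIs in 533 vehicle cells. Its level was 521 CPM (497 to 547) against 325 CPM (307 to 343), a log2 ratio of 0.68 (0.58 to 0.79). The difference was spread over many cells and did not come from a few. The median MuSC-like cell held 3 Pax7 UMIs in the ATRA+agonist library and 2 in the vehicle library. The 10 richest cells held 9.89% and 9.03% of the Pax7 UMIs. Cells with 10 or more Pax7 UMIs were 40 of 412 and 8 of 533. At least 1 UMI was found in 86.7% of cells (83.0% to 89.8%) and 78.8% (75.1% to 82.2%). The median depth of the cells was 7448 and 6475 UMIs, and with every cell thinned to 1000 UMIs the expected shares were 38.2% and 27.1%, with 4 shallower ATRA+agonist cells left out. In endothelial-like cells, which should lack Pax7, the share was 0.119% and 0.0412% at median depths of 2722 and 3124 UMIs.

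**Figure D2:**
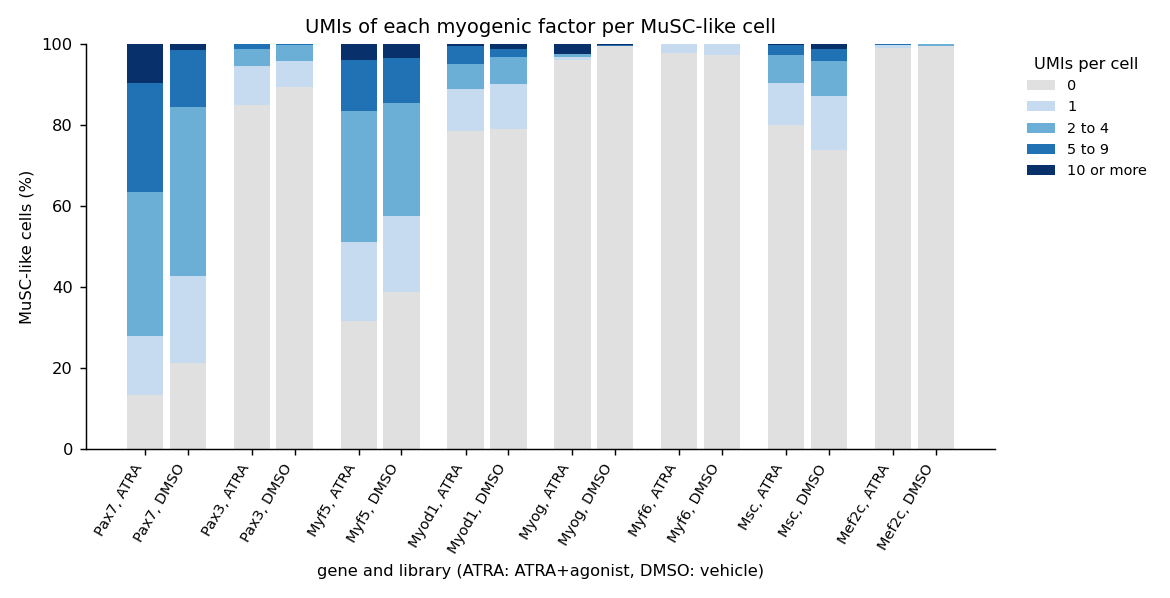
Share of MuSC-like cells (percent, vertical axis) by the number of UMIs per cell (shades), for each factor in the ATRA+agonist (ATRA) and DMSO vehicle (DMSO) library. The darkest part of the Pax7 bars, 10 or more UMIs, is 40 of 412 and 8 of 533 cells, while nearly all Myf6 and Mef2c bars are at 0 UMIs.

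Pax3 was found in fewer cells. It had 114 UMIs in 62 of 412 cells (interval of the share 11.7% to 18.9%) with ATRA+agonist and 94 UMIs in 56 of 533 cells (8.03% to 13.4%) with vehicle. The level was 34.4 and 23.5 CPM, a log2 ratio of 0.55 (0.14 to 0.96), and the intervals of the shares overlapped. The 10 richest cells held 43.0% and 36.2% of the Pax3 UMIs. Outside muscle lineages, Pax3 UMIs were found in glial-like cells, 4 cells (1.87%) and 7 cells (1.72%). Schwann cell precursors are known to express Pax3. Most Pax3 cells also held Pax7, 52 of 62 and 44 of 56.

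Myf5, the first regulatory factor of the lineage, was found in more of the ATRA+agonist cells but not at a higher level. The level was 279 CPM from 926 UMIs with ATRA+agonist and 292 CPM from 1166 UMIs with vehicle, a log2 ratio of -0.06 (-0.19 to 0.06). The share of cells was 68.4% (63.7% to 72.9%) and 61.2% (56.9% to 65.3%), with intervals that overlapped, and after thinning it was 21.2% and 20.5%. The median Myf5-positive cell held 2 UMIs in both libraries, and 1 vehicle cell held 40.

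Myod1 was found in about the same share of cells, 88 of 412 (21.4%) and 112 of 533 (21.0%). Its level was 75.7 CPM from 251 UMIs and 75.1 CPM from 300 UMIs, a log2 ratio of 0.01 (-0.24 to 0.26). With ATRA+agonist, 65 of the 251 UMIs lay in the 16 cells that also held Myog. Without the Myog cells of both libraries 186 and 296 Myod1 UMIs remained, and the log2 ratio was -0.31 (-0.58 to -0.04). Thinning gave -0.35.

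Msc, the repressive family member, was lower with ATRA+agonist. It had 201 UMIs (60.6 CPM, 52.5 to 69.6) in 82 cells and 391 UMIs (97.9 CPM, 88.5 to 108) in 140 cells, a log2 ratio of -0.69 (-0.94 to -0.44). With every cell thinned to 1000 UMIs the levels were 55.8 and 76.7 CPM, and the log2 ratio of -0.46 was no longer past 1.5-fold. The share was 19.9% (16.2% to 24.1%) and 26.3% (22.6% to 30.2%), and the intervals of the shares overlapped. Msc was not particular to the stem cells. It was found in 110 of 1263 fibro-adipogenic progenitor-like (FAP-like) cells (8.71%) and 102 of 1562 (6.53%), with a log2 ratio there of 0.05 (-0.31 to 0.41). Among FAP-like clusters the share was highest in the one led by Cxcl14 and Smoc2, with 79 of 636 and 69 of 734 cells, and it was 8 of 305 and 15 of 329 cells in the one led by Sema3c and Pi16.

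**Figure D3:**
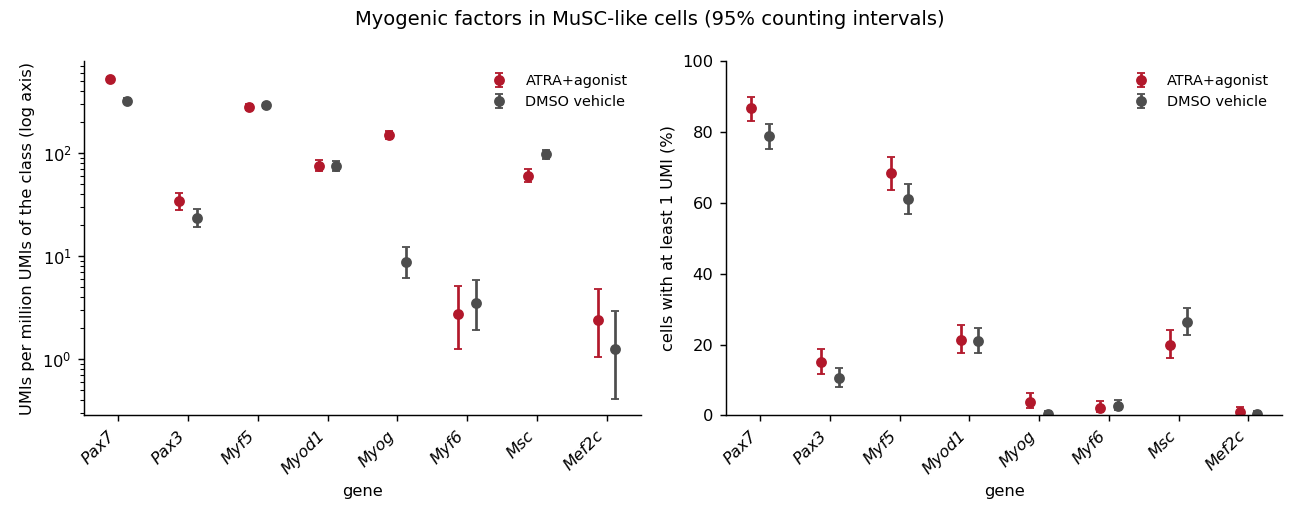
Level (left, UMIs per 1000000 UMIs of the class, log axis) and share of MuSC-like cells with a UMI (right, percent) of each factor, as points with 95% counting intervals for the ATRA+agonist (red) and DMSO vehicle (gray) library. Pax7 and Myog lie higher with ATRA+agonist and Msc lower, and the Pax3, Myf5, Myod1, Myf6 and Mef2c intervals overlap in the left panel.

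The MuSC-like class consisted of 2 clusters, and the factors differed between them. The larger cluster held 348 and 492 cells, and the smaller held 64 and 41 cells with a median of 3030 and 2637 UMIs. In the smaller cluster Pax7 was found in 32 of 64 cells and 12 of 41, but Myf5 in only 4 of 64 (6.25%) and 4 of 41 (9.76%). The Myf5 level was 18.0 and 56.7 CPM there, against 298 and 300 CPM in the larger cluster. The Pax3 level was 103 CPM (65.6 to 155) in the smaller and 29.4 CPM (23.7 to 36.1) in the larger cluster with ATRA+agonist. With vehicle it was 56.7 CPM (22.8 to 117, from 7 UMIs in 3 cells) and 22.5 CPM (18.0 to 27.7), with intervals that overlapped. The share of cells with Pax3, not corrected for depth, was 14.1% in the smaller against 15.2% in the larger cluster, and 7.32% against 10.8% with vehicle. The larger cluster was deeper, with a median of 8398.5 and 6884 UMIs, so these shares are not at like depth. The Pax7 log2 ratio was 0.71 (0.61 to 0.82) within the larger cluster and 0.45 (-0.23 to 1.17) within the smaller. For Pax3 it was 0.39 (-0.05 to 0.83) and 0.87 (-0.40 to 2.33), so the interval included 0 within each cluster. Both clusters were named from the same 9 markers, of which 9 passed the naming limit in the larger cluster and 7 in the smaller. Their sizes were not compared.

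Co-detection was compared in MuSC-like cells next. Most MuSC-like cells held at least 1 of Pax7, Myf5 and Myod1, 377 of 412 (91.5%) and 480 of 533 (90.1%). The most common combination was Pax7 and Myf5 without Myod1, in 207 cells (50.2%, 45.3% to 55.2%) with ATRA+agonist and 224 cells (42.0%, 37.8% to 46.3%) with vehicle. Pax7 without Myf5 and Myod1 was found in 75 (18.2%) and 103 cells (19.3%), and all 3 in 60 (14.6%) and 55 cells (10.3%). No cell held more than 5 of the 8 factors. Cells with none of the 8 numbered 26 and 40, and their median depth of 2806 and 3785 UMIs was below that of the class.

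Myf5 was found more often beside Pax7 than without it, by less after thinning. With ATRA+agonist, 267 of 357 Pax7 cells held Myf5 (74.8%, 70.0% to 79.2%), against 15 of 55 cells without Pax7 (27.3%, 16.1% to 41.0%). With vehicle it was 279 of 420 (66.4%, 61.7% to 70.9%) against 47 of 113 (41.6%, 32.4% to 51.2%). Depth moved with this difference, since Pax7 cells had a median of 7806 and 7139 UMIs and the others 4240 and 5095. With every cell thinned to 1000 UMIs the shares were 23.9% against 19.5% and 21.5% against 20.1%. Cluster moved with it too. In the smaller cluster 32 of 64 and 12 of 41 cells held Pax7, and 4 and 4 held Myf5. The part of the clusters was not tested.

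Myod1 was found at shares with overlapping intervals with and without Pax7. Of the Pax7 cells, 75 of 357 (21.0%, 16.9% to 25.6%) and 93 of 420 (22.1%, 18.3% to 26.4%) held Myod1. Of the cells without Pax7, 13 of 55 (23.6%, 13.2% to 37.0%) and 19 of 113 (16.8%, 10.4% to 25.0%) did. Most Myod1 cells therefore also held Pax7, 85.2% and 83.0%. Msc was found in a larger share of the cells with Myf5 than of those without it. Of the Myf5 cells 23.8% and 34.7% held Msc, against 11.5% and 13.0% of the cells without Myf5, at a median depth of 8460 and 7470 against 5286 and 5340 UMIs. After thinning the shares were 5.44% against 4.20% and 9.78% against 5.78%. In the smaller cluster 1 of 64 and 3 of 41 cells held Msc, and the part of the clusters was not tested.

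Cells with and without a factor also differed in other genes, described here by the log2 ratio of summed levels with over without. The genes named are examples from the 6 lists below. No rule for naming them was set, and shares over all genes are not given beside them. Cells with and without Pax7 also differed in depth and in cluster, and the part of these was not tested. In Pax7 cells Heyl, a Notch target of quiescent stem cells, was higher in both libraries, at 1.66 (0.94 to 2.48) and 1.08 (0.54 to 1.67). Notch3, a Notch receptor, was also higher, at 0.83 and 0.74. In Myod1 cells both were lower, Heyl at -0.69 (-1.05 to -0.35) and -0.52 (-0.93 to -0.14), and Notch3 at -0.62 and -0.53. The proliferation marker Mki67 was higher in Myod1 cells, at 3.41 (2.38 to 4.57) and 3.95 (2.65 to 5.52), and in Msc cells, at 3.89 (2.78 to 5.19) and 2.77 (1.52 to 4.21). These proliferation transcripts lay in very few cells. Cells with 2 or more UMIs of Mki67 and Top2a numbered 9 with ATRA+agonist and 4 with vehicle, and they held 88 of 101 and 68 of 77 such UMIs. Of these cells, 6 of 9 and 3 of 4 held Myod1, 5 of 9 and 1 of 4 held Msc, and 7 of 9 and 3 of 4 held Pax7, at a median depth of 15601 and 17136 UMIs. In Pax3 cells Ccnd1, the cyclin of cell cycle entry, was lower in both libraries, at -0.79 (-1.32 to -0.31) and -1.88 (-3.02 to -0.93), and Id1, an inhibitor of the regulatory factors, was lower at -0.65 and -0.84.

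Myog had the largest ratio of the 8 factors but rested on few cells. It had 499 UMIs in 16 of 412 ATRA+agonist cells (3.88%, 2.24% to 6.23%) and 35 UMIs in 2 of 533 vehicle cells (0.375%, 0.0455% to 1.35%). The level was 150 and 8.77 CPM, a log2 ratio of 4.10 (3.61 to 4.64). The 16 cells held from 1 to 136 Myog UMIs, and 10 of them held 97.6% of the total. The vehicle cells held 28 and 7. All 18 cells lay in the larger stem cell cluster, and their median depth of 14975 and 15679 UMIs was above the 7326 and 6463 of the other cells of the class. The part of depth, or of doublets that were not removed, was not tested. Fiber markers were at most 0.878% of the UMIs of any of these cells.

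The Myog cells were not alike, as the plot of single cells shows. The division at 10 Myog UMIs was chosen after the values had been seen. Of the 10 ATRA+agonist cells with 10 or more Myog UMIs, 6 held Mymk and 7 held Mymx, the membrane proteins that fuse myoblasts. All 10 held Cdkn1c, the cell cycle inhibitor p57, with 4 to 181 UMIs each, 3 held Pax7 and 1 held Mki67. Of the 6 cells with fewer Myog UMIs none held Mymk, Mymx, Tnnt2 or Actc1, while 5 held Pax7 and 5 held Mki67. Myod1 was found in both kinds, 8 of 10 and 5 of 6, and in both vehicle cells. The vehicle cell with 28 Myog UMIs held 23 Tnnt2 and 85 Cdkn1c UMIs and no Mki67.

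**Figure D4:**
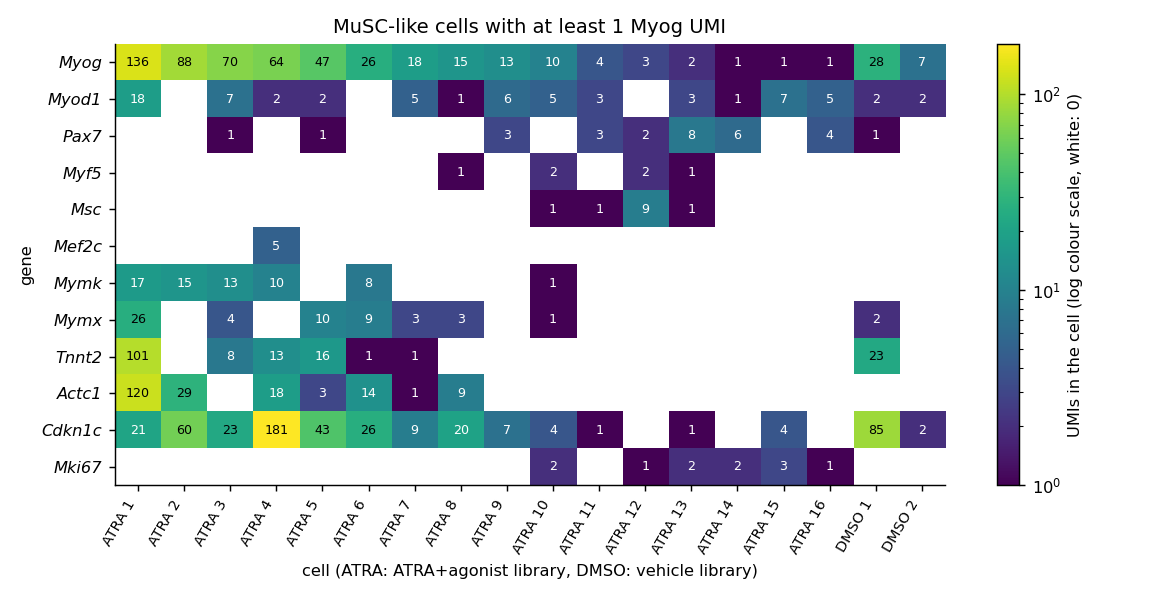
UMIs per cell (number and color, log scale, white for 0) of 12 genes (rows) in the 18 MuSC-like cells with a Myog UMI (columns), ordered by Myog UMIs within the ATRA+agonist (ATRA) and DMSO vehicle (DMSO) library. The ATRA+agonist cells at the left, with up to 136 Myog UMIs, hold Cdkn1c and, in most, Mymk or Mymx, and most of those at the right hold Pax7 and Mki67.

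Genes with at least 50 UMIs in the Myog cells were ranked by their ratio over the other MuSC-like cells. Over both libraries, with 18 against 927 cells, the 10 highest were Actc1, Tnnt2, Mymk, Mymx, Gm28653, Ttn, Acta1, Mylpf, Atp2a1 and Cdkn1c. Most of these cells were from the ATRA+agonist library. Of the 10 highest genes of the 2 vehicle cells only Cdkn1c was among them, but the limit of 50 UMIs left out genes with fewer UMIs in these 2 cells. Tnnt2, with 23 UMIs in 1 of them, was left out in this way. So was Ttn, which had 316 of its 360 Myog-cell UMIs in the ATRA+agonist library. Both vehicle cells had 0 Actc1 and 0 Mymk UMIs. Tnnt2 (cardiac troponin T, also made in nascent muscle) had 163 UMIs in 7 Myog cells and 0 in the others, and Actc1 (cardiac actin) had 194 UMIs in 7 cells and 1 in the others. The giant sarcomere protein gene Ttn was at 1352 against 41.0 CPM, a log2 ratio of 5.04 (4.81 to 5.27). Pax7 was lower in the Myog cells, at 109 against 425 CPM (-1.97, -2.55 to -1.44), and Myf5 at 22.5 against 296 CPM (-3.72, -5.16 to -2.59). Calcr had 0 UMIs in them and 1996 in the others. Chrna1, the muscle acetylcholine receptor subunit, was higher at 466 against 51.5 CPM (3.18, 2.87 to 3.47).

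The sequence before the start of Myog is shown with that of Tnnt2, whose pattern over classes was nearest to that of Myog, and that of Myf5, which was lower in the Myog cells. These are the 250 bases before the start in RefSeq (GRCm38.p6), with matches to the E-box letters CANNTG in capitals, a motif that is its own reverse complement, so that 1 search covers both strands. For Tnnt2 the first of its windows is shown. The windows lie at chr1:134289754-134290003 (Myog, plus strand), chr1:135836084-135836333 (Tnnt2, plus strand) and chr10:107486135-107486384 (Myf5, minus strand).
Myog: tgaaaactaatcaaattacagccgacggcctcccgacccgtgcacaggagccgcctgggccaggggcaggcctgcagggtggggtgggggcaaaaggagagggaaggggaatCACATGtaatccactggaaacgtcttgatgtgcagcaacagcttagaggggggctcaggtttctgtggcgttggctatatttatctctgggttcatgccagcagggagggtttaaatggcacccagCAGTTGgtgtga
Tnnt2: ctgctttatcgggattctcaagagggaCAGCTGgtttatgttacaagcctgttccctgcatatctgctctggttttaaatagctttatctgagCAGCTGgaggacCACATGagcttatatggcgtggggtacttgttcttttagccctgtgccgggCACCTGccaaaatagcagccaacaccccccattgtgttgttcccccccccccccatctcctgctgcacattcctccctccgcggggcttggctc
Myf5: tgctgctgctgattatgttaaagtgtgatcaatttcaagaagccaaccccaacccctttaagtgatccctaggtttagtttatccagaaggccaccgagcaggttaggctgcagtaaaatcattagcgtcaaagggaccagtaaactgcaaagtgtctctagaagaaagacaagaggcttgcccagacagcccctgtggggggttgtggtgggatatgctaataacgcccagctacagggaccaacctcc
The Myog window held 2 matches, with first bases at -138 and -12 from the start, the Tnnt2 window held 4 and the Myf5 window 0. Of 32851 such windows over 27025 genes, 66.2% held at least 1 match and 31.8% at least 2, so that 2 matches are common, and 12.2% held 3 or more. Of the 8 factors 4 had a window (Pax7, Myf5, Myog and Mef2c). That of Pax7 held 0 matches, and the Mef2c windows held 2, 0 and 1. The second Tnnt2 window held 1 match, and the window of Actc1, which was also high in the Myog cells, held 0. GENCODE M21 begins Myog at 134289989, inside the window shown, so positions from the start depend on the annotation. A match is a description of the letters and not of binding.

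Genes that work with the factors were followed in 6 lists in MuSC-like cells, with the same 1.5-fold limit and the same shares of all genes as above (12.1% higher, 9.22% lower). Of the 20 differentiation genes 15 had at least 10 UMIs, and 11 of these were higher with ATRA+agonist and 1 was lower, with a median log2 ratio of 1.38. Tnnt2 had 140 and 23 UMIs (2.87, 2.23 to 3.58), Mymx 56 and 2 (5.08, 3.16 to 8.16), the fast fiber myosin light chain Mylpf 100 and 42 (1.52, 0.99 to 2.08) and the RNA-binding splicing factor Rbm24 156 and 83 (1.18, 0.79 to 1.58). Mymk had 64 and 0 UMIs and Actc1 195 and 0. Against the limit of 3 counts in the vehicle class these were 25.7-fold and 78.3-fold higher. The exact lower limits of their log2 ratios were 4.34 and 5.98. In the ATRA+agonist library 1 cell held 120 of the 195 Actc1 UMIs and 101 of the 140 Tnnt2 UMIs. All 23 vehicle Tnnt2 UMIs lay in 1 cell. The intervals cover counting error only and do not allow for UMIs that lie together in a cell. Tnni1 (slow troponin I) was at 2.34, the thin filament ruler Neb at 0.95 and Cdkn1c at 0.68, the calcium release machinery gene Jsrp1 at 0.54 (just under the limit) and the cell cycle inhibitor p21 (Cdkn1a) at 0.38, while the M-band protein Myom1 was lower at -0.91 (-1.44 to -0.39).

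These counts rested on the 16 and 2 Myog cells. Without them 9 of the 20 genes had at least 10 UMIs, and 1 was higher and 2 were lower, with a median of 0.08, where 11.4% of 13066 genes were higher and 9.57% lower. Tnnt2, Mymx and Mymk then had 0 UMIs in both libraries. Cdkn1c turned to -0.50 (-0.76 to -0.25), from 201 and 366 UMIs, and Rbm24 was at 0.08 (-0.42 to 0.57).

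The other lists moved less. Of the 17 tested partners of the regulatory factors (E proteins, Mef2 and homeobox factors and chromatin cofactors) 3 were higher and 1 lower, with a median of 0.12. The E protein Tcf4 was at 0.05 (-0.03 to 0.12) and Tcf12 at 0.07, Mef2a at -0.19 (-0.33 to -0.06) and the histone demethylase Kdm6a at -0.12. Smarcd3, the BAF60C subunit that works with Myod1, was at 0.73 (0.36 to 1.11), Pitx3 at 0.98 (0.17 to 1.81) and Six4 at -0.65 (-1.16 to -0.15). Without the Myog cells 1 partner was higher, and Smarcd3 was under the limit at 0.52 (0.13 to 0.92). Of the 18 tested inhibitors 2 were higher and 1 lower, with a median of 0.29. Id1 was at 0.70 (0.51 to 0.88), the E-box repressor Bhlhe41 at 0.85 (0.40 to 1.32), Hey1 at -0.60 (-1.25 to 0.03) and Id3, just under the limit, at 0.54 (0.47 to 0.61). The E-box repressor Zeb1 was at 0.19, Mdfic at -0.13 and Hdac4, which represses Mef2, at -0.32 (-0.49 to -0.16).

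Of the 18 stem cell state genes 0 were higher and 1 was lower, with a median of 0.02. That gene was Foxo3, a forkhead factor of quiescence, at -0.91 (-1.18 to -0.66). Dystrophin (Dmd) was at 0.04, its partner dystroglycan (Dag1) at 0.41 (0.34 to 0.48), syndecan-4 (Sdc4) at -0.25 (-0.32 to -0.18) and Tenm4 at -0.07. Of the 12 tested proliferation genes 6 were higher and 1 lower, with a median of 0.61. Without the Myog cells 6 of the 12 were higher and 1 lower, with a median of 0.58, but these were not the same 6. Mki67 fell under the limit, and Top2a just reached it at 0.59 (-0.04 to 1.22). Ccnd1 was at 0.71 (0.48 to 0.94), Mki67 at 0.84 (0.17 to 1.52) from 49 and 33 UMIs but at 0.57 (-0.15 to 1.28) without the Myog cells, Top2a at 0.51 (-0.10 to 1.12), Ccnd3 at -0.43 and the replication clamp Pcna at -0.49 (-0.75 to -0.23). Stress genes that dissociation induces moved too. Of 12, 4 were higher and 2 lower, with a median of 0.43. Fos was at 0.98 (0.94 to 1.01), Btg2 at 0.80, Jun at 0.67, Junb at 0.62, Egr1 at 0.50, Fosb at 0.23 and Jund at 0.07, and the heat shock genes Hspa1a and Hspa1b were at -0.70 and -1.39. The part of the dissociation in the factors' differences was not tested.

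Fiber-rich barcodes held a different set of factors. Myf6 had 84 UMIs in 53 of 276 ATRA+agonist barcodes (19.2%, 14.7% to 24.4%) and 30 UMIs in 15 of 84 vehicle barcodes (17.9%, 10.4% to 27.7%). Its level was 212 CPM (169 to 263) and 215 CPM (145 to 306), so that no difference was detectable at this depth. Mef2c had 262 UMIs in 138 of 276 barcodes (43.9% to 56.1%) and 122 UMIs in 34 of 84 barcodes (29.9% to 51.7%). Its level was 663 CPM (585 to 748) and 873 CPM (725 to 1042), and 23 of the 122 vehicle UMIs lay in 1 barcode. The median depth was 959 and 1089 UMIs, far below that of MuSC-like cells.

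Factors found in MuSC-like cells were detected in few or none of the fiber-rich barcodes. Pax7, Pax3 and Msc had 0 UMIs in all 276 and 84 fiber-rich barcodes, which allows shares of barcodes with a UMI of up to 1.09% and 3.57% and sets no limit on barcodes that express the genes. Myf5 had 1 and 0 UMIs, although it is the neighbor of Myf6 on the chromosome. Myod1 had 12 UMIs in 11 barcodes (3.99%) and 3 in 2 (2.38%), and Myog 10 UMIs in 5 (1.81%) and 3 in 2 (2.38%). Myod1 barcodes were deeper, with a median of 3373 UMIs against 942 for the others with ATRA+agonist. Of the Myf6 barcodes 37 of 53 (69.8%) and 7 of 15 (46.7%) also held Mef2c, against 101 of 223 (45.3%) and 27 of 69 (39.1%) of those without Myf6, at a median depth of 1472 and 1566 against 923 and 1035 UMIs. In MuSC-like cells Myf6 had 9 and 14 UMIs, never more than 1 per cell.

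Outside MuSC-like cells and fibers, Mef2c was the most counted factor, followed by Msc with 148 and 152 UMIs. Pax7 was counted 9 and 6 times over 6267 and 6382 cells, Myf5 6 and 4 times, Myod1 5 and 0 times and Myog 6 and 0 times. Mef2c was counted 11319 and 6358 times, in 49.9% and 40.6% of the cells. In both libraries B cell-like cells had the highest Mef2c level of the kept classes, at 1094 CPM (1063 to 1127) in 641 cells and 993 CPM (905 to 1088) in 81 cells, and 96.1% and 84.0% of them held a UMI. The muscle fiber-like class of the kept cells was at 624 CPM (228 cells) and 763 CPM (38 cells), and with vehicle its interval of 582 to 982 CPM overlapped that of B cell-like cells.

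Below these classes the order was less firm. With vehicle the next were endothelial-like cells at 365 CPM and smooth muscle or pericyte-like cells at 364 CPM, whose intervals overlapped, and then monocyte or macrophage-like cells at 257 CPM. With ATRA+agonist endothelial-like cells were at 484 CPM, monocyte or macrophage-like cells at 431 CPM (409 to 454) and smooth muscle or pericyte-like cells at 395 CPM (356 to 437), and the intervals of the last pair overlapped. Glial-like cells followed at 180 and 190 CPM and dendritic-like cells at 160 and 120 CPM. FAP-like cells (50.5 and 42.9 CPM) and tenocyte-like cells (39.6 and 37.9 CPM) overlapped with vehicle and with ATRA+agonist. T or NK cell-like cells (5.42 and 2.13 CPM) and MuSC-like cells (2.41 and 1.25 CPM) were lowest and overlapped too.

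**Figure D5:**
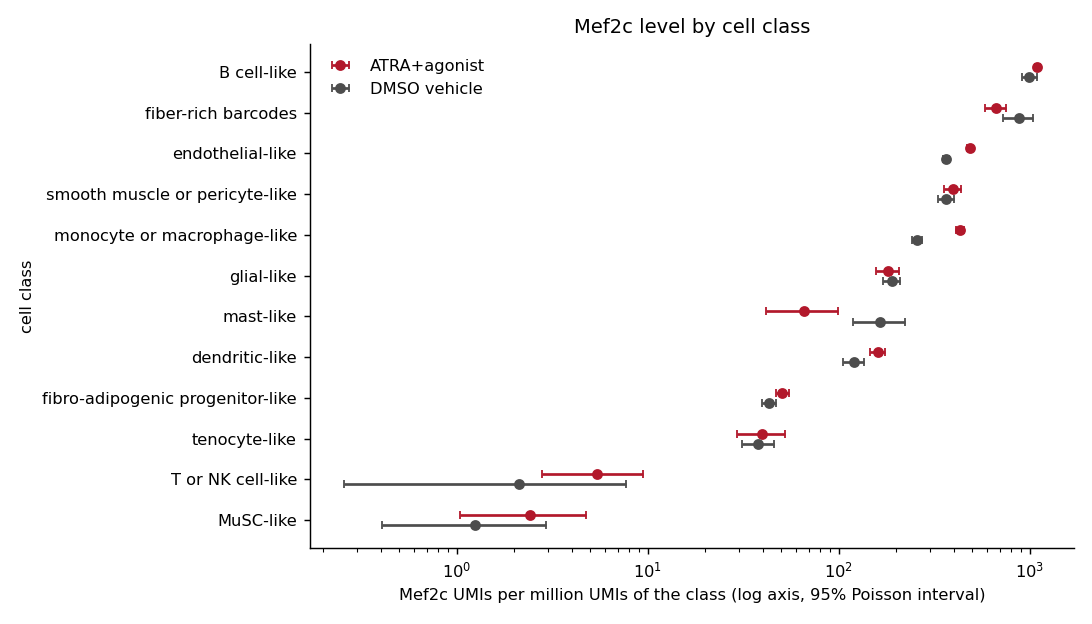
Mef2c level (horizontal log axis, UMIs per 1000000 UMIs of the class) with 95% Poisson intervals for 11 classes and for fiber-rich barcodes, ordered by the vehicle level, in the ATRA+agonist (red) and DMSO vehicle (gray) library. MuSC-like cells lie at 2.41 and 1.25 CPM and B cell-like cells at 1094 and 993 CPM.

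The Mef2c difference between the libraries depended on the class and on the clusters within it. In monocyte or macrophage-like cells the level was 431 against 257 CPM, a log2 ratio of 0.75 (0.63 to 0.86), where 13.0% of 12317 genes were at least 1.5-fold higher. Within the cluster led by C1qa and C1qc the ratio was 0.33 (0.21 to 0.45). The other cluster, led by Chil3 and Plac8, had a lower level (41.6 and 95.1 CPM) and held 21 ATRA+agonist and 152 vehicle cells. In endothelial-like cells the ratio was 0.41 (0.33 to 0.48), and it was positive in each of the 6 endothelial-like clusters, from 0.15 (-0.17 to 0.45) in that led by Cd274 to 0.55 (0.03 to 1.09) in that led by Rflnb. In B cell-like cells it was 0.14 (0.00 to 0.28), but 0.09 (-0.15 to 0.34) in the cluster led by Igkc and Jchain and -0.40 (-0.57 to -0.23) in that led by Ighd, which had 509 and 33 cells. Smooth muscle or pericyte-like cells had 0.12 (-0.08 to 0.32), glial-like cells -0.07 (-0.32 to 0.17) and dendritic-like cells 0.41 (0.19 to 0.63). Mast-like cells had -1.32 (-2.13 to -0.55) from 23 and 41 UMIs, where 21.3% of 6617 genes were at least 1.5-fold lower. Of the 41 UMIs 26 lay in 1 vehicle cell, and with every cell thinned to 1000 UMIs the levels were 102 and 90.7 CPM.

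The genes most like each factor were ranked by the Pearson correlation of log2(CPM + 10) over 24 combinations of class and library from 13 classes, which share their libraries. For Pax7 they were Fndc3c1, Cdh15 and Myf5, for Myf5 Cdh15, Pax7 and Fndc3c1, and for Pax3 Fgfr4 (r = 0.99), Gm45159 and Nol4. Cdh15 and Fgfr4 were among the markers that named the MuSC-like class, so their match was in part set by the naming. For a gene found mainly in a single class, r rests largely on the values of that class. Myod1 was most like 1110002E22Rik, Ano5 and Sim2, and Myog most like Tnnt2 (r = 0.94), Gm28653 and Ano5. Myf6 followed Trdn, Sln and Cavin4, genes of fiber membranes, and Msc followed Nppc, Zim1 and Stxbp5l. Mef2c had no close match, with Hist3h2a at r = 0.77, Ankrd33b at 0.74 and Babam1 at 0.72.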

How the data were processed

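Cells of 2 mice per group were captured with 10x 3-prime chemistry. The authors deposited raw UMI counts per gene and barcode, made with Cell Ranger 7.2.0 on mm10 (GRCm38). The annotation release is not given in the sources used here, and gene positions come from GENCODE M21. Barcodes with 300 to 5000 detected genes, under 20% mitochondrial and under 0.25% Hbb- UMIs were kept, and the 7.5% with the most simulated doublets among their neighbors were removed. Cells were clustered on 2000 variable genes without the factors and pathway genes that were not markers (30 principal components, 20 neighbors, resolution 0.8) and named from marker lists. Class names were rebuilt here and carry the suffix "-like".

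Levels are summed UMIs per 1000000 UMIs (CPM). Their intervals are Poisson, those of shares Clopper-Pearson, and those of ratios conditional binomial, all exact at 95%, and the ratio script was tested on simulated data. Depth was 65197625 and 109343486 UMIs. A count of 0 is given the limit of 3 counts. Thinning gives the expected value over all draws of 1000 UMIs per cell, with shallower cells left out. With 1 library per group no p-value was computed, and ratios are given from 10 UMIs over both libraries. The genes named per pathway list were the 4 with the most UMIs and every gene with at least 50 UMIs and a ratio past 1.5-fold. The members and lists were chosen with earlier results of these data known. Filters, doublet removal, clustering, the fiber limit, a marker gate and thinning were varied. Python 3.11.15, NumPy 2.4.6, SciPy 1.17.1, pandas 2.3.3, scikit-learn 1.9.0, python-igraph 0.11.9 and Matplotlib 3.10.9 were used.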

Additional observations from a re-analysis of the deposited data

Results flagged for a closer look

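Barcodes with more than 5000 detected genes were left out of the kept cells, and Myog had more UMIs among them with ATRA+agonist than with vehicle. In 76 such ATRA+agonist barcodes Myog had 355 UMIs, in 9 barcodes, and in 75 vehicle barcodes it had 53 UMIs, in 1 barcode. By their marker UMIs 24 and 24 of these barcodes passed the stem cell gate. Of all 76 and 75 barcodes, Pax7 was found in 16 and 17, Myod1 in 11 and 6, and Pax3 in 11 (37 UMIs) and 0. Barcodes of this size can hold more than 1 cell, and the part of doublets in these counts was not tested.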

How the results depend on the processing

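No paired analysis was possible because each group had 1 library, which also left no replicate to leave out. For Pax7, Pax3, Myf5, Myod1, Myog and Msc in MuSC-like cells, 89 of 95 alternative log2 ratios stayed within the counting interval of the reported value and Pax7, Pax3, Myog and Msc kept their sign in all of them. With no maximum of genes, Pax7 was at 0.58, which is no longer past 1.5-fold, and Myog at 4.76. Thinning took Msc to -0.46, also no longer past 1.5-fold. As means over cells of log-normalized values, Myf5 was at 0.14 and Myog at 3.47. Myod1 was at -0.35 with cells thinned to 1000 UMIs, and at -0.31 without the cells with Myog UMIs, an alternative chosen after seeing the data. The causes were not tested. All 32 values for Myf6 and Mef2c stayed within their wide intervals, which rest on 13 to 23 UMIs. Of 206 shares of MuSC-like cells without thinning 10 moved, of 64 shares of fiber-rich barcodes 3, of 76 co-detection shares 1 and of 16 shares in other classes 1. Without the Myog cells the differentiation genes at least 1.5-fold higher went from 11 to 1, the partners from 3 to 1, the inhibitors from 2 to 3 and the stem cell state genes from 0 to 1. The proliferation genes stayed at 6, with Top2a in place of Mki67, and the dissociation genes at 4. Differences of Pax3 and Myf6 are limited by depth, and the spread between mice is unknown.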
